A study of Mus musculus with 5 samples.

Results

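The 6 genes described here encode channels through which bone cells exchange signals: the pannexins Panx1, Panx2 and Panx3 and the connexins Gja1, Gjc1 and Gjb2. They were found in the table by their gene symbol, and all 6 were measured, each by 1 probe set, among 23185 named genes. The list was chosen from the pannexin and connexin families with earlier values of these same arrays in view, so the levels and differences of the 6 genes are given as descriptions, with a standard error but with no test. RNA came from 5 clones of Ocy454, a mouse osteocyte-like line known to derive from long bones of mice that carry a temperature-sensitive large T antigen and a reporter under the Dmp1 promoter. The clones were grown without treatment for 7 days at 37 °C, and each was 1 single-cell clone measured on 1 Affymetrix array. Out of 37 clones screened for Sost, the gene of the Wnt inhibitor sclerostin, the labels place 12H and 15H in a high SOST group and 4L, 9L and 24L in a low SOST group. Neither group carried a deletion or a treatment, and both were picked for their Sost level. The question of the comparison is which genes separate clones of high from clones of low Sost.

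Connexin subunits assemble into hemichannels, and hemichannels of neighbouring cells dock into gap junctions that pass ions and small metabolites. Pannexins share that overall shape but are glycosylated on their outer face and work mostly as single-membrane channels that release ATP. In bone, Gja1 (connexin 43) links osteocyte processes with each other and with osteoblasts, and Panx3 is known from maturing osteoblasts and hypertrophic chondrocytes.

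The sequence just upstream of a gene's start is shown for the members whose levels separated the clones and that had an entry, Gja1 and Panx1, together with Ibsp, a gene that followed Panx3 from clone to clone as described further on. RefSeq windows of build GRCm38.p6 were matched by symbol for 3 of the 6 members (Panx1, Gja1 and Gjb2). The windows hold the 250 bases before the start, 5′ to 3′ on the strand of the gene, and lie at chr10:56377050-56377299 (plus strand) for Gja1, chr9:15045479-15045728 (minus strand) for Panx1 and chr5:104299037-104299286 (plus strand) for Ibsp. Capitals mark matches on either strand to 5 motifs: AP-1 (TGANTCA), CRE (TGACGTCA), the RUNX core (TGTGGT), the GC box (GGGCGG) and the TATA box, whose letters are TATAAA.
Gja1: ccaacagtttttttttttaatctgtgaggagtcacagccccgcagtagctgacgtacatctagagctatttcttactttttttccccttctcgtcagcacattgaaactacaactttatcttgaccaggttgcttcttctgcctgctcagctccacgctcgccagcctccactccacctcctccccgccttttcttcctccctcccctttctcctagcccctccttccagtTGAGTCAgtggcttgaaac
Panx1: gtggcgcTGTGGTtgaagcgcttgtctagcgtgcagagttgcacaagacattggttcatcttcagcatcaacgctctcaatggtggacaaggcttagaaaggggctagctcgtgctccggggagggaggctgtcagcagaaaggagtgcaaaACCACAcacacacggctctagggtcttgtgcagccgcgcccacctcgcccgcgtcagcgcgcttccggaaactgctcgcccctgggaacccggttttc
Ibsp: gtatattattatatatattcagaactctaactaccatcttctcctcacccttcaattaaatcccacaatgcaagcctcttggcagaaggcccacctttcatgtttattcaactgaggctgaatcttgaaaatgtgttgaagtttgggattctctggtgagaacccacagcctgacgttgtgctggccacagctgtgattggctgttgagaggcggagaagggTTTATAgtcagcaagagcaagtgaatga

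The Gja1 window held a single match, an AP-1 motif whose first base lies 19 bases upstream of the start. That motif is present in 6.75% of the 32851 windows of the same length in the RefSeq table. The Panx1 window held 2 matches, both to the RUNX core, at 243 and 98 bases upstream, a motif found in 14% of all windows. The Ibsp window held a TATA motif on the strand opposite to the gene, printed as TTTATA, 28 bases upstream. On either strand that motif was found in 12.4% of windows. The Gjb2 window, not printed, held 2 GC boxes, found in 32.7% of windows, and no window of these genes held the CRE motif, found in 1.55%. The motifs do not overlap one another in these windows. The GC content was 50% for Gja1, 59.6% for Panx1, 69.2% for Gjb2 and 43.6% for Ibsp, against a median of 52.4%. A match is a string of letters and shows no binding.

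The values are RMA expression on the log2 scale, so a step of 1 is a 2-fold change, and levels can be compared between clones for 1 gene but not between genes. A level was read as above background when it exceeded the 95th percentile of 1354 olfactory and vomeronasal receptor genes on the same array, which lay between 3.37 and 3.56. The array medians lay between 4.13 and 4.16 over the named genes. Sost itself, for which the clones were picked, read 4.08 in 12H and 3.92 in 15H, with 3.78 (4L), 3.89 (9L) and 3.91 (24L) in the other group. On these arrays the labels were thus barely separated in Sost, by 0.14 on average (SE 0.07, 1.1-fold, limma adjusted p = 0.737) and by 0.01 between the nearest clones, and no clone exceeded the 99th percentile of the receptor genes. Of the other defining osteocyte markers, Mepe read 2.79 to 3.05 and was not above background in any clone. Dmp1 (7.45 in 12H and 5.75 in 15H) and Phex (6.04 and 6.99) lay above background in the high-Sost clones only, and read at most 2.90 and 3.17 in the low-Sost clones. The number of arrays limits the precision, and p-values, where given, set the difference between groups against the spread between clones. That spread also holds variation of culture and array, as each clone had 1 array.

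Panx3 had by far the widest span of the 6 genes. It read 10.92 in clone 12H and 10.30 in 15H, and the low-Sost clones read 8.69 (9L), 7.56 (24L) and 2.69 (4L). Both high-Sost clones lay above all 3 low-Sost clones, and 4L stood apart from every other clone. The high-Sost mean was 10.61 ± 0.44 (SD, n = 2), the low-Sost mean 6.32 ± 3.19 (SD, n = 3), and they differed by 4.29 (SE 2.15), 19.6-fold as measured. That fold includes 4L, which was not above background, and with 4L set at the background limit of its array the groups differed by at least 16.4-fold. Without 4L the difference was 2.48 (SE 0.56) or 5.58-fold. As measured, only 2 of all 23185 genes had a larger positive difference and only 2 a wider range, ranks that rest on 4L: without it Panx3 came 25th by difference and 107th by range.

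The level of Panx3 in 4L was not above background, since 85.7% of receptor genes read lower there, while in 24L it exceeded the background limit by 4.20 and in 12H by 7.37. The gene was thus measured above background in 2 of the 3 low-Sost clones. With 4L at its background limit, the low-Sost clones spanned at least 5.24 (6.01 as measured), and 24L exceeded 4L at least 17.3-fold. Clone 9L exceeded 24L by 1.13. Between the groups, 15H exceeded 9L by 1.60 (3.03-fold), more than the 0.63 between 12H and 15H. Without 9L the difference was 5.48 (SE 2.15). In cultures measured as a whole, fewer cells with Panx3 RNA and less of it per cell cannot be told apart.

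**Figure D1:**
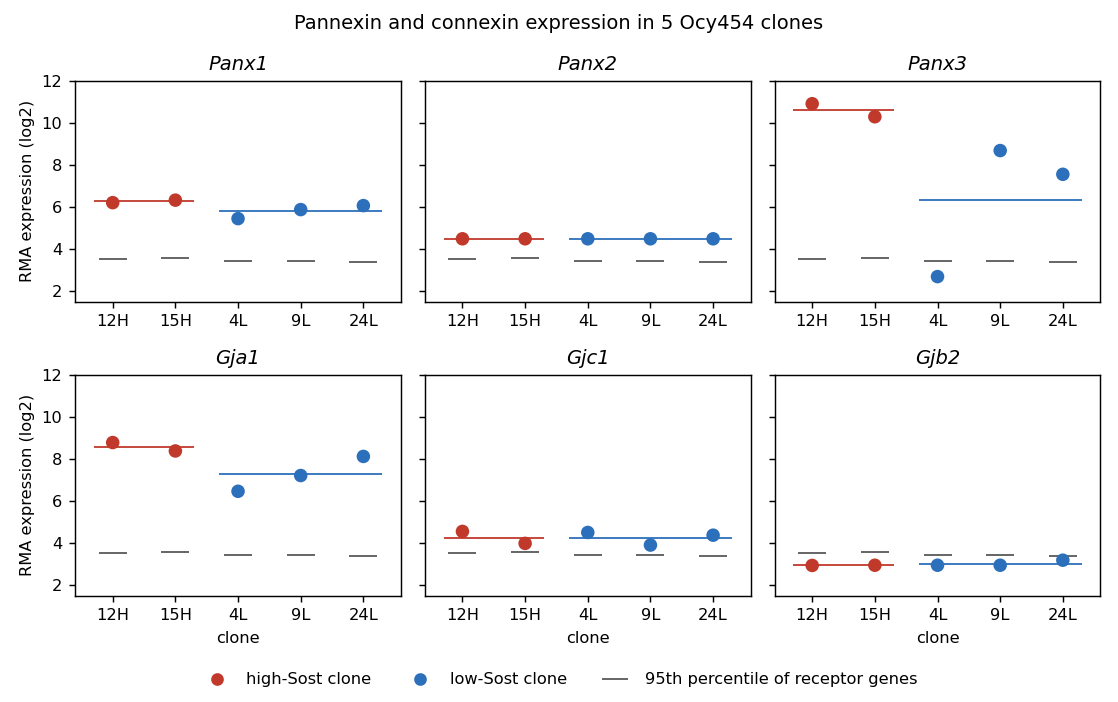
Each panel plots 1 gene's RMA expression (log2, y axis) in the 5 clones (x axis), 1 point per array; horizontal lines are group means and grey dashes the 95th percentile of receptor genes on that array. Panx3 runs from 2.69 in 4L to 10.92 in 12H, Gja1 from 6.47 to 8.79, Panx2 is level at 4.49 and Gjb2 lies under the grey dashes.

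Gja1, the main gap junction gene of osteoblasts and osteocytes, read 8.79 in 12H, 8.39 in 15H, 8.13 in 24L, 7.22 in 9L and 6.47 in 4L. All 5 levels lay well above background, by 3.02 in 4L and by 5.24 in 12H. The high-Sost clones did not overlap the low-Sost clones, but 15H exceeded 24L by only 0.26, less than the 0.40 that separates 12H from 15H. The mean was 8.59 ± 0.28 (SD, n = 2) in the high-Sost and 7.27 ± 0.83 (SD, n = 3) in the low-Sost clones, and these differed by 1.32 (SE 0.57), or 2.49-fold. Without 4L the difference was 0.92 (SE 0.43), and without 24L, the low-Sost clone nearest to the high-Sost pair, it was 1.75 (SE 0.37). The range of 2.32 was wider than that of 98.1% of 2274 genes with a mean within 0.5 of that of Gja1.

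The low-Sost clones thus stood in different orders for these genes. Clone 4L was lowest for both, but 9L exceeded 24L for Panx3 by 1.13, and 24L exceeded 9L for Gja1 by 0.91. With 1 array per clone, no single clone has a spread of its own against which such a step can be set.

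Panx1, the widely expressed ATP release channel, read 6.33 in 15H, 6.21 in 12H, 6.07 in 24L, 5.88 in 9L and 5.45 in 4L. Again the groups did not overlap, and 4L was the lowest clone. The step from 12H down to 24L was 0.13, the same size as the step between the high-Sost clones themselves. The mean was 6.27 ± 0.09 (SD, n = 2) with high and 5.80 ± 0.32 (SD, n = 3) with low Sost, 0.47 apart (SE 0.22, 1.38-fold), and 0.29 apart (SE 0.10) without 4L. Its range of 0.89 exceeded that of 70.6% of genes of like mean, so Panx1 varied somewhat more between clones than the median gene of its level.

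Panx2, the pannexin best known from the nervous system, read 4.49 in all 5 clones. It is among 1280 named genes (5.52%) that hold a single value on all arrays. The level exceeded the receptor limit in every clone, by 0.93 to 1.12, but no clone reached the 99th percentile of the receptor genes, 4.53 to 4.78. A constant value of this kind does not show that Panx2 RNA was equal in the clones.

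Gjc1 (connexin 45), a connexin that can join Gja1 in mixed channels, read 4.56 in 12H, 4.51 in 4L, 4.38 in 24L, 3.99 in 15H and 3.91 in 9L. Clones of the groups were intermixed in this order, and the group means were equal at 4.27 (SD 0.40, n = 2, and SD 0.32, n = 3). The difference was 0.00 (SE 0.29), and the 0.57 between 12H and 15H was almost as wide as the range of 0.65 over all clones. All 5 levels were above the 95th percentile of receptor genes and only that of 12H above the 99th.

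Gjb2 (Cx26), a connexin of epithelia and the cochlea, lay below the background limit in every clone. It read 2.94 in 12H, 2.95 in 15H, 4L and 9L and 3.19 in 24L, and 90.0% to 93.4% of receptor genes read lower. The groups overlapped, with a difference of -0.08 (SE 0.09). A difference between the clones was not detectable at that level.

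Of the 6 genes, 3 (Panx1, Panx3 and Gja1) were higher in the high-Sost clones without overlap, where 8.26% of all named genes were, and 0 were lower without overlap, where 7.75% were. At least 2-fold and without overlap, 2 of the 6 were higher (Panx3 and Gja1), where 0.867% of all genes were, and 0 were lower, where 0.983% were. The members were chosen with these values known, so the counts carry no weight as evidence. Over all genes, 0 of 23185 passed limma's moderated test at a Benjamini-Hochberg adjusted p under 0.05 (0%), and at an unadjusted p under 0.05, 3.07% were higher and 2.71% lower in the high-Sost clones.

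**Figure D2:**
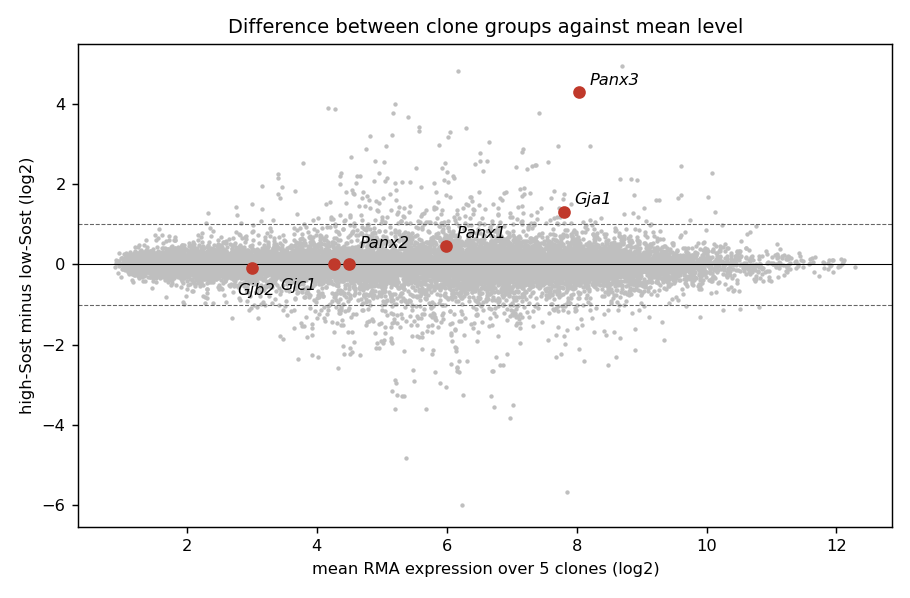
Each grey point is a named gene, with its mean RMA expression over the 5 clones (log2, x axis) and its high-Sost minus low-Sost difference (log2, y axis); red points are the 6 channel genes and dashed lines mark a 2-fold difference. Panx3 lies at 4.29 and Gja1 at 1.32, and Panx1 at 0.47, Panx2 and Gjc1 at 0.00 and Gjb2 at -0.08 lie inside the dashed lines.

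Of 6 measured osteoblast markers, 3 (Sp7, Ibsp and Alpl) had the clone order of Panx3 and 3 did not. Bglap, osteocalcin, was lowest in 24L (3.45), Col1a1 was highest there (11.64), and Col1a2 read higher in 24L (11.05) than in 15H (10.96). All 6 were above background in 12H, 15H, 9L and 24L and 4 in 4L. Their log2 levels summed to 62.1 (12H), 60.1 (15H), 53.6 (9L), 51.9 (24L) and 34.9 (4L). The markers below background in 4L were Sp7, the osteoblast transcription factor osterix, at 2.68, and Ibsp, bone sialoprotein, at 2.24. Col1a1, the main bone collagen, still read 10.35 there. Their part in the level of Panx3 was not tested. The 11 osteocyte markers summed to 62.2 and 60.9 in the high-Sost and 49.3 to 51.2 in the low-Sost clones. The gap came mostly from Phex, Dmp1 and Dkk1, a Wnt inhibitor, which differed by 3.90, 3.86 and 3.78. Pdpn, an early osteocyte marker, went the other way without overlap (8.35 and 8.06 against 8.97 to 9.20, -0.92, SE 0.13), Capg differed by -0.34 (SE 0.23) with overlap, and Mepe, Fgf23 and Ptprz1 were not above background in any clone. None of these passed limma's test. In 9L and 24L Panx3 read 8.69 and 7.56, where Dmp1, at 2.54 and 2.90, was not above background.

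Lists of markers of other cell types were also read. Of 9 chondrocyte markers 6 lay above background in every clone, led by Sox9 at 7.02 to 7.95. Col2a1 read 4.95 to 5.43, above the 99th percentile of receptor genes in every clone. Acan and Col10a1 were not above background, at 2.38 to 3.39. Of 9 epithelial markers 6 lay above it, none higher than 5.46, with Epcam at 1.83 to 1.92. Of 7 endothelial markers 0 were above background in all clones. The chondrocyte list summed to 39.1 and 39.3 in the high-Sost clones and 36.9 to 37.4 in the others, without overlap. Col11a2 was the only one of its genes higher without overlap (6.29 and 5.82 against 4.84 to 5.23, 2.04-fold). It did not pass limma's test, and the groups overlapped for Sox9. The muscle list, with 4 of 8 markers above background in every clone, summed to 33.3 and 33.5 against 30.8 to 31.3, without overlap. Within it Des (5.83 and 6.16 against 4.05 to 5.47, 2.39-fold) and Acta1 (5.41 and 5.49 against 4.86 to 5.13, 1.39-fold) were higher without overlap and did not pass limma's test. Over all named genes, 8.26% were higher without overlap, the share beside which these chondrocyte and muscle genes stand. No such share was computed for summed levels. Myog, a myogenic regulator, read 4.65 to 4.79, above the 99th percentile of receptor genes in every clone, Myod1 read 3.22 to 3.57, and Ckm, at 3.04, was not above background. Summed levels of the other lists overlapped between groups, at 32.9 and 33.3 against 32.3 to 33.4 for epithelial and 19.6 and 19.8 against 19.6 to 20.7 for endothelial markers. The neural (2 of 6) and blood (3 of 7) lists summed to 22.5 and 23.0 against 22.2 to 22.7 and to 27.7 and 28.5 against 24.7 to 28.0. In the blood list Ctsk read 7.85 in 12H, 8.02 in 15H, 3.50 in 4L, 8.35 in 9L and 4.48 in 24L. Cd68 read 5.27 to 6.97, and the groups overlapped for both genes. The part of the markers of other cell types in the differences of Panx3, Gja1 and Panx1 was not tested.

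Among 17462 protein-coding genes, the 3 whose clone-centred levels lay closest to those of Panx3 were Sp7, Ibsp and Slc13a5, a citrate transporter. Likeness was the root mean square of the differences over the 5 clones, which was 0.34 for Sp7, 0.58 for Ibsp and 0.83 for Slc13a5. Sp7 read 9.98 in 12H, 9.41 in 15H, 2.68 in 4L, 8.0 in 9L and 7.05 in 24L. Ibsp read 11.80, 11.52, 2.24, 9.56 and 8.35 in the same order of clones. Slc13a5 read 10.03, 8.93, 3.68, 8.91 and 7.04. All 3 shared with Panx3 the drop in 4L and the step from 9L down to 24L. When 4L was left out, Ibsp and Sp7 were still the nearest genes, each at 0.17, followed by Ifitm5, a bone-restricted membrane protein, and Slc13a5 came 34th. Sp7 and Ibsp stayed among the nearest 3 with any single clone left out.

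For Gja1 the nearest genes were B4galnt1, a ganglioside synthase (0.16), Creb3l1, a transcription factor of the secretory pathway in osteoblasts (0.17), and Phactr2 (0.18). Creb3l1 read 10.51 in 12H, 9.87 in 15H, 7.72 in 4L, 8.65 in 9L and 9.39 in 24L. B4galnt1 read 7.80, 7.57, 5.80, 6.59 and 7.10 in that order, and Phactr2 read 6.44, 5.93, 4.09, 4.91 and 5.33. These genes had the order of Gja1, with 24L above 9L and 9L above 4L. Their distances to Gja1 changed little when 4L was left out (0.16, 0.16 and 0.19 for B4galnt1, Creb3l1 and Phactr2) or 9L (0.15, 0.19 and 0.18). Other genes came closer then, so that 0 of the 3 remained among the nearest 3 in either case and they ranked 8th to 25th of 17462. Col1a2, a collagen chain, came 13th for Gja1 (0.29), where Sp7 (1.89) and Ibsp (2.77) were among the most distant genes. This distance grows with the range of a gene, which was 7.30 for Sp7 and 9.57 for Ibsp against 2.32 for Gja1. Like Gja1, Sp7 and Ibsp were highest in 12H and 15H and lowest in 4L.

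**Figure D3:**
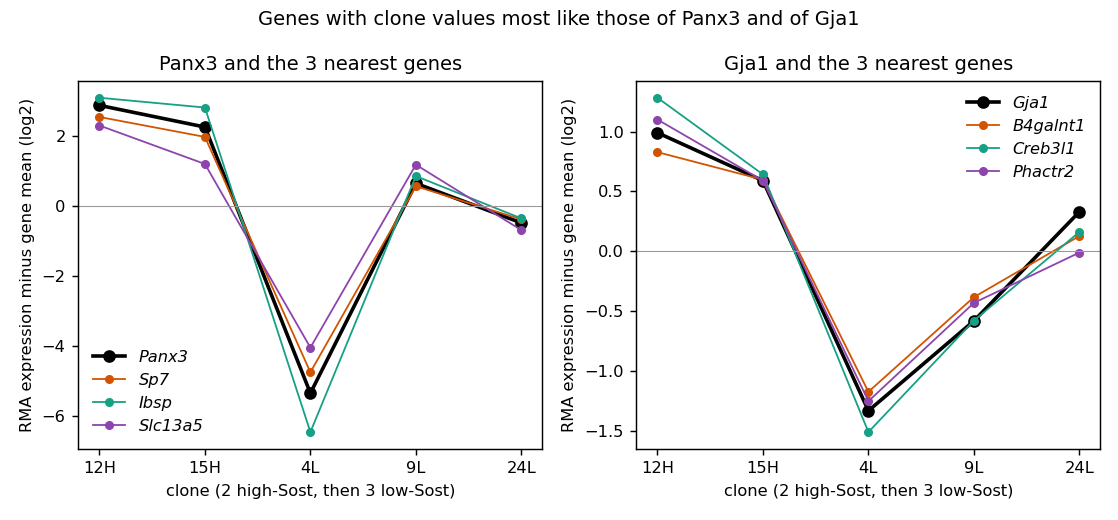
Points give RMA expression minus the gene's own mean over the clones (log2, y axis) in each clone (x axis) for Panx3 (left) and Gja1 (right) with the 3 genes nearest to each; lines only join the points of a gene. Panx3, Sp7 and Ibsp fall together in 4L and step down from 9L to 24L, and Gja1 and its nearest genes step up from 4L through 9L to 24L.

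The members lie on chromosomes 9 (Panx1 and Panx3), 10 (Gja1), 11 (Gjc1), 14 (Gjb2) and 15 (Panx2), so only Panx1 and Panx3 share one. Beside Panx3, on one side Tbrg1 ranged over 1.18 and Siae over 1.75, each lowest in 4L (8.39 and 6.0), and Spa17 over 0.44. Siae read 7.75 in 12H, 7.29 in 15H, 7.04 in 9L and 7.02 in 24L, so it had the clone order of Panx3 (0.83, SE 0.43). Tbrg1 and Spa17 did not have that order. A part of the position in this likeness was not tested. On the other side the nearest measured genes were the olfactory receptors Olfr160, Olfr151 and Olfr874, at 1.92 or lower in every clone. Of the 3 measured genes on each side of Gja1, the widest range was 0.78, of Msl3l2, against 2.32 for Gja1. The median deviation of chromosome 9 genes from the other clones was -0.01 in 12H, -0.11 in 15H, 0.04 in 4L, -0.05 in 9L and 0.20 for 24L, over 437 genes. Subtracting each clone's chromosome medians left the difference at 4.42 for Panx3, 0.59 for Panx1 and 1.26 for Gja1. Chromosome 15, with Panx2, had the widest shifts of these chromosomes, from -0.36 in 12H to 0.30 in 4L, and the single value of Panx2 did not follow them.

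Other connexins were mostly near background. Of 17 further connexin genes listed, 13 were measured, 4 lay above background in every clone and 8 in none. Gja5 (connexin 40, of the atrium and arteries) read 4.49 in 12H and 4.65 in 15H, and 4.69 (9L), 4.82 (24L) and 4.89 (4L) in the low-Sost clones, a difference of -0.23 (SE 0.09; limma adjusted p = 0.737). Gjd3 read 4.75 to 4.83 and Gja4 (connexin 37) 3.92 to 4.11, with the groups overlapping for both. Gja3 (connexin 46, of the lens) read 5.09 in 12H and 3.51 to 3.62 in the other clones, so its difference of 0.82 (SE 0.50) rested on 12H. Gja3 is the neighbour of Gjb2 on chromosome 14, where the median deviation in 12H was 0.30 over 250 genes. Gjb5 was above background only in 9L, at 4.05, against 2.80 to 3.30 elsewhere. Gje1, below background throughout at 2.01 to 2.15, differed by 0.08 (SE 0.04; adjusted p = 0.737). None of the 13 passed limma's test, also at an unadjusted p under 0.05, and their median difference was 0.00, as over all genes.

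**Figure D4:**
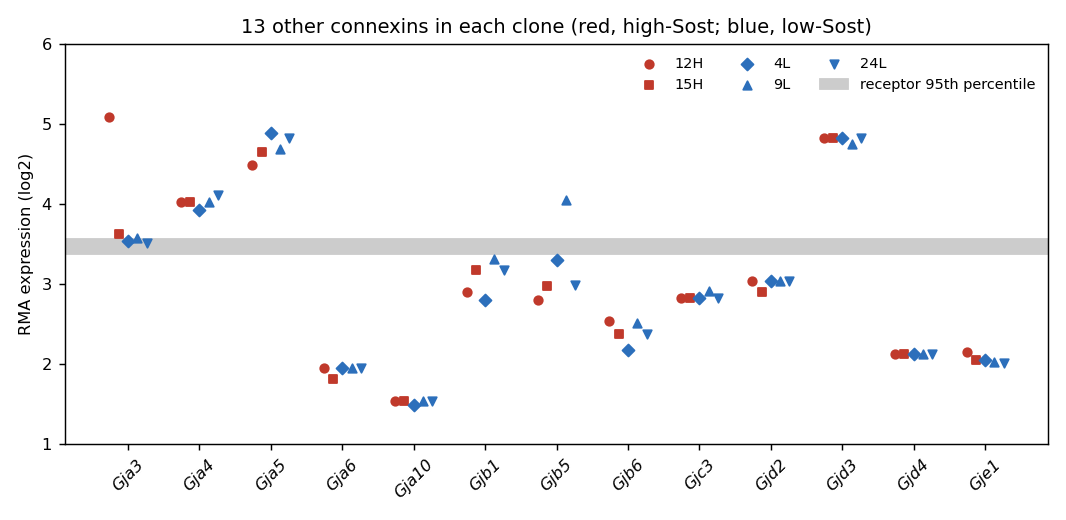
RMA expression (log2, y axis) of the 13 other connexins (x axis) in each clone, by colour and marker; the grey band spans the 95th percentiles of receptor genes on the 5 arrays, 3.37 to 3.56. Gja3 in 12H, at 5.09, and Gjb5 in 9L, at 4.05, are the points that stand away from the other clones of the same gene.

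Beyond the other connexins, 5 lists covered what these channels touch: junction partners, receptors for released nucleotides, enzymes and transporters of extracellular nucleotides, prostaglandin genes, and other large-pore channels. With the connexins, 99 of 114 genes were measured and 0 passed limma's test after adjustment over all genes. At an unadjusted p under 0.05, 6 (6.06%) were higher and 5 (5.05%) lower, against 3.07% and 2.71% of all genes, and their median difference was 0.00, equal to that of all genes. Without overlap, 17 (17.2%) were higher and 8 (8.08%) lower, against 8.26% and 7.75% of all genes, and 12.9% and 13.5% of the 7807 genes with a mean of 6 or more. Of the 99 genes, 40.4% had such a mean, against 33.7% of all genes. The lists were written with earlier results of these arrays known, so these shares carry no weight as evidence.

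Among 21 junction partners and regulators, all above background in every clone, 3 were higher and 2 lower at an unadjusted p under 0.05. Over all genes, 3.07% were higher and 2.71% lower. Those higher were Cdh2 (0.82), Akt1 (0.38) and Prkcd (0.32), and those lower were Cav1 and Itga5 (-0.51). Cav1, the main protein of caveolae, read 6.16 in 12H and 6.69 in 15H, with 8.41 (4L), 8.73 (9L) and 8.79 (24L) in the low-Sost clones. Its difference of -2.22 (SE 0.22), 4.65-fold, was opposite in sign to that of Gja1 and did not pass (adjusted p = 0.546). Tjp1, the scaffold ZO-1 on which gap junction plaques form, read 8.16 to 8.26 in all clones. The median difference of the list was 0.03.

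Of 16 genes listed as purinergic receptors, 5 lay above background in every clone and 8 in none, and the median difference was 0.00. Most receptors of this list sense nucleotides or adenosine outside the cell. P2rx5 read 4.78 (12H) and 4.67 (15H) but 5.02 to 5.13 with low Sost (-0.37, SE 0.06, adjusted p = 0.599). P2rx1 read 3.81 and 3.72 against 3.13 to 3.38 (0.49, SE 0.09, adjusted p = 0.669), levels near background. These were the only list members at an unadjusted p under 0.05, where 3.07% of all genes were higher and 2.71% lower.

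Of 20 enzymes and transporters of nucleotides, 1 was higher at an unadjusted p under 0.05 (Slc28a1, 0.18, SE 0.03) and 0 lower. The shares over all genes were 3.07% and 2.71%, and the median difference of the list was 0.09. Slc28a1 read 3.35 to 3.59, near background, and lay above it in 12H and 24L only. Alpl, the phosphatase that breaks down extracellular nucleotides and pyrophosphate, read 11.61 (12H), 11.30 (15H), 10.93 (9L), 10.36 (24L) and 6.21 (4L), with the groups separate (2.29, SE 1.73, adjusted p = 0.737). It is also an osteoblast marker, and its clones had the order of Panx3. Without 4L it was no longer 2-fold apart, and 0 members of the list were.

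Of 12 prostaglandin genes 0 reached an unadjusted p under 0.05, where 3.07% of all genes were higher and 2.71% lower. The median difference of the list was -0.05. Ptgs2, the inducible cyclooxygenase, read 7.04 and 6.64 against 5.92 to 6.52 (0.52, SE 0.27, adjusted p = 0.737). Pla2g4a, which frees arachidonic acid, read 9.65 and 9.66 against 8.33 (4L), 9.58 (9L) and 8.62 (24L), higher without overlap (0.81, SE 0.44, adjusted p = 0.737).

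Of 17 other large-pore channel genes 1 (Calhm2) was higher and 2 (Ttyh1 and Ttyh3) lower at an unadjusted p under 0.05. The shares over all genes were 3.07% and 2.71%, and the median difference of the list was -0.01. Ttyh3, a member of the tweety family, read 6.13 in 12H and 7.21 in 15H, with 8.91 (4L), 8.96 (9L) and 9.33 (24L) in the low-Sost clones. It was 5.27-fold lower with high Sost (-2.40, SE 0.39) and missed the threshold (adjusted p = 0.602). Lrrc8a, the required subunit of volume-regulated anion channels, read 7.86 to 7.98 in all clones.

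**Figure D5:**
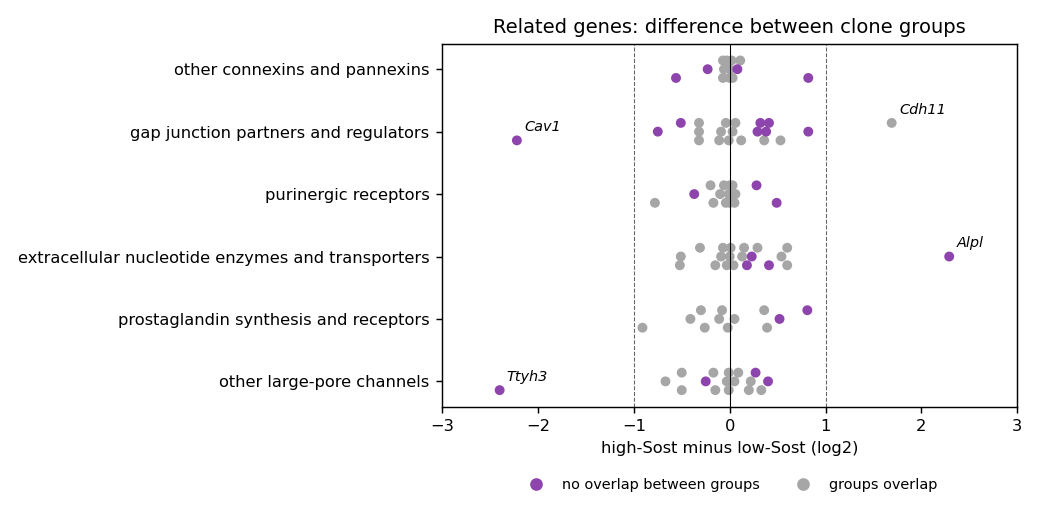
Each point is a gene of 1 of 6 related lists (y axis) at its high-Sost minus low-Sost difference (log2, x axis); purple points have no overlap between the groups, grey points overlap, and dashed lines mark a 2-fold difference. Cav1 at -2.22, Ttyh3 at -2.40 and Alpl at 2.29 lie outside the lines without overlap, and Cdh11 at 1.69 lies outside with overlap.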

How the data were processed

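Total RNA from 5 Ocy454 clones was labelled with biotin and hybridised to Affymetrix arrays, 1 per clone. The authors deposited log2 expression values, for which the submitters' processing notes list the tools RMA, R 2.15.1 and affy 1.36.1. The sources used here do not give the chip definition or the build. Among 25206 rows, 23185 had 1 gene in the platform table and 2021 unnamed rows were left out. Symbols were updated through Entrez numbers with RefSeq genes (GRCm38.p6, used for names, chromosomes and neighbours only).

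Differences and standard errors came from limma 3.58.1 in R 4.3.3 (lmFit by group, eBayes, 3 residual and 0.70 prior degrees of freedom); p-values are two-sided and Benjamini-Hochberg adjusted over 23185 genes. The fit was tested on simulated data. An overlap means that the groups' clones are not fully separated. The members and lists were chosen with earlier results of these data known. Named were the members, connexins above background in any clone, per list up to 4 genes at least 2-fold apart without overlap or else the 2 with the smallest p, and for members with a range of 1 or more the 3 nearest protein-coding genes, leaving out predicted genes and receptors. The labels do not say that clones were cultured more than once. Alternatives were dim-gene filtering, re-scaling, other variance settings, leaving out each clone and, added after seeing the data, subtracting chromosome medians and setting Panx3 in 4L at its background limit. A planned comparison of protein sequences was not run. Python 3.11.15 with matplotlib 3.10.9 drew the figures. Other named genes (Col1a1, Sox9, Tjp1, Lrrc8a, Slc28a1, other markers, Ifitm5, Col1a2, neighbours and those in the closing section) were chosen after their values were seen. This also holds for Cdh2, Akt1, Prkcd, Itga5, Calhm2 and Ttyh1.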

Additional observations from a re-analysis of the deposited data

How the results depend on the processing

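The differences of Panx1, Panx3 and Gja1 stayed positive in all 11 settings. For genes whose groups do not overlap, leaving out a clone cannot change the sign, so only the sizes are informative there. Leaving out each clone in turn gave 0.29 to 0.61 for Panx1, 2.48 to 5.48 for Panx3, 0.92 to 1.75 for Gja1, -0.28 to 0.29 for Gjc1 and -0.12 to -0.01 for Gjb2, and ranges over the clones of 0.45 to 0.89, 3.36 to 8.23, 1.57 to 2.32, 0.57 to 0.65 and 0.01 to 0.25. Group medians gave 3.04 for Panx3. Panx2, constant as deposited, differed by 0.01 after a further quantile normalization and by 0.41 with chromosome medians subtracted, and its range became 0.03 after a shift of the arrays to 1 median, 0.06 after quantile normalization and 0.66 with chromosome medians subtracted. That last setting also gave Gjb2 a difference of -0.28 and a range of 0.55. At the 99th percentile of receptor genes Panx2 lay above background in 0 clones and Gjc1 in 1, and against the array median Gjc1 in 3. Genes passing over the whole table, 0 as deposited, were 2 with arrays shifted to 1 median, 2 with chromosome medians subtracted and 3 at an adjusted p under 0.1. Without single clones, 425 to 820 genes were at least 2-fold apart without overlap, against 429. The same count in the lists, leaving out clones, was 0 to 1 for other connexins, 1 to 2 for junction partners, 0 to 1 for purinergic receptors, 0 to 3 for nucleotide genes (2 with chromosome medians subtracted), 0 to 1 for prostaglandin genes and 1 to 2 for large-pore channels. Of 294 values recomputed, 264 moved by no more than the gene's residual SD between clones of a group, or stayed within 1.5 times for a count. That SD was 2.62 for Panx3, so the move of its difference from 4.29 to 2.48 without 4L counted as within it. Many of the 264 were list counts of 0 passing genes that stayed at 0, so the total is no measure of stability. Where 1 high-Sost clone was left, it was taken to have the spread of the low-Sost group. Signal over background limits Gjb2, Panx2, Gjc1 and Panx3 in 4L. No paired analysis was possible because each clone belongs to 1 group only.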

Other observations

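Some related genes varied widely between clones without following the Sost label, and were picked after their values were seen. P2rx7, the ATP-gated channel often studied with pannexins, read 7.19 in 9L, 6.38 in 15H, 5.47 in 4L, 5.05 in 24L and 3.85 in 12H, so the high-Sost clones stood near opposite ends of its range of 3.34. Slc17a9, the vesicular nucleotide transporter, read 6.45 in 9L, 5.59 in 15H, 5.33 in 12H, 4.18 in 24L and 3.95 in 4L. Nt5e, which forms adenosine outside the cell, read 8.41 in 9L, 8.19 in 15H, 7.35 in 12H, 7.16 in 24L and 6.13 in 4L. P2rx7, Slc17a9 and Nt5e were all highest in 9L with 15H next.

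Cdh11, the osteoblast cadherin, read 6.19 in 4L and 10.50 to 11.33 in the other clones, including both other low-Sost clones. Slco2a1, a prostaglandin transporter, read 7.71 in 9L and 4.56 to 4.87 in the others. Groups overlapped for all 5 of these genes.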
